A study of Mus musculus with 4 samples.

Results

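The genes described here are the broadly expressed protein-coding genes of mouse chromosome 15 in polyoma middle T (PyMT) mammary tumour cells. They were chosen by joining the deposited table to GENCODE M21 gene positions on GRCm38 and keeping coding genes with at least 5 FPKM in each of 4 libraries. FPKM counts sequenced fragments per kilobase of a transcript, scaled by the library total. Of 768 coding genes on the chromosome, 309 reached that level, 75 had their lowest library between 1 and 5 FPKM and 384 had it under 1. Keratins, respiratory chain subunits and a few genes taken by name, 16 in all, were left out, which gave 293 genes out of 50679 in the table. They lie between positions 3317760 and 103340093.

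RNA was sequenced from 2 libraries labelled PCNA 211F (211F 1 and 211F 2) and 2 labelled PCNA WT (WT 1 and WT 2). PCNA is the sliding clamp of DNA replication, and 211F is given here only as the labels name it. Both groups carry the PyMT oncogene, which drives mammary tumours, and came from tumours of mice aged 10 weeks. Epithelial cells were captured with an EpCAM antibody and plated at a density of 100000 in serum-containing medium. The promoter of the oncogene, the mouse strain and whether the libraries of a genotype came from separate animals are not stated by the labels. P-values therefore measure only the spread between these libraries, which need not be that between animals. That spread includes the differences in marker levels within each genotype given below.

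A chromosome is a positional group and not a pathway, so its genes share an address and little else. In tumour cells the gain or loss of whole chromosomes or segments is common, and transcripts of a gained or lost segment generally move together in the direction of the dose. Mouse chromosome 15 carries Myc, the growth-promoting transcription factor, and an additional copy of it is a known feature of mouse T-cell lymphomas. DNA copy number was not measured in these samples, and every value here is an RNA level.

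The shift of WT 2 on this chromosome was known when the genes were chosen, so it is described here without a test. It is the value of log2(FPKM + 1) in WT 2 minus the mean of that value in 211F 1, 211F 2 and WT 1. The median of the same difference over 7563 coding genes of other chromosomes at the same level was subtracted from it. Differences below are on this scale, which slightly understates folds.

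Before the results, the library WT 2 stood apart from its label. All 10 epithelial markers were lowest in WT 2, where they summed to 7.10 FPKM, against 3298 in 211F 1, 3497 in 211F 2 and 3011 in WT 1. Epcam, whose product the capture antibody binds, stood at 0.893 FPKM in WT 2, against 77.3 in 211F 1, 450 in 211F 2 and 444 in WT 1. Of 10 mesenchymal or fibroblast markers 8 were highest in WT 2, and they summed to 3507 FPKM there, against 3843 in 211F 1, 43.1 in 211F 2 and 274 in WT 1. Leukocyte markers summed to at most 0.286 FPKM and endothelial markers to at most 2.04 FPKM in any library. Pcna had 173 and 119 FPKM in the 211F libraries, against 155 and 147 FPKM in the WT libraries, which does not check a change in the protein. WT 2 was also the most deeply sequenced library, at 1.72 times WT 1 provided that no later rescaling was applied, with 211F 1 at 1.10 and 211F 2 at 0.937.

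Transcripts of chromosome 15 stood higher in WT 2 than in the other 3 libraries. The median of the 293 genes was 37.0 FPKM in WT 2, against 28.4 in 211F 1, 26.7 in 211F 2 and 26.5 in WT 1. Over coding genes of other chromosomes the medians were level, at 25.9 FPKM in WT 2, 26.3 in 211F 1, 26.6 in 211F 2 and 25.3 in WT 1. The median shift of the 293 genes was 0.51 log2 units, a factor of 1.42, with quartiles at 0.26 and 0.79. The shift was above 0 in 260 of 293 genes (88.7%), beside 3781 of 7563 genes (50.0%) on other chromosomes. That 50.0% is fixed in advance by the centring on those genes. Taken singly, each against all others, the other chromosomes ran from 14.4% (chromosome 18) to 80.7% (chromosome 17) above 0. In bulk RNA, a different mix of cells and a different RNA amount per cell cannot be told apart.

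The 293 genes made up 4.42% of all FPKM in WT 2, against 3.41% in 211F 1, 2.94% in 211F 2 and 3.33% in WT 1. With each library centred on the genes of other chromosomes, WT 2 was the highest of the 4 in 208 of 293 genes (71.0%). On other chromosomes WT 2 was highest in 27.2%. It was the lowest library for 12 of the 293 genes (4.10%), beside 28.8% elsewhere. In 75 of the genes (25.6%) WT 2 lay at least 0.5 log2 units above the next library, which on other chromosomes held for 5.24%.

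The spread of the genes around their median was similar to that elsewhere, with an SD of 0.512 log2 units over the 293 genes and 0.556 over genes of other chromosomes. A shift of at least 1 log2 unit was seen in 42 of the genes, or 14.3%, beside 3.27% elsewhere. A shift of -1 or less was seen in 4 genes, beside 3.52% elsewhere. The 2 highest shifts, named after their values were seen, were those of Osmr and Dab2. Osmr, the oncostatin M receptor, was at 85.5 FPKM in WT 2, against 20.7 in 211F 1, 9.61 in 211F 2 and 19.3 in WT 1, a shift of 2.40. Dab2, an endocytic adaptor, was at 67.4 FPKM in WT 2, against 28.8 in 211F 1, 6.06 in 211F 2 and 14.8 in WT 1, a shift of 2.23.

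Chromosome 15 had the highest median in WT 2 among 20 chromosomes. Each chromosome was compared in the same way, with all its coding genes at the level used and against all other chromosomes. On that scale chromosome 15 stood at 0.519 in WT 2 over 309 genes, while the other 19 chromosomes lay between -0.372 (chromosome 18, 195 genes) and 0.318 (chromosome 17, 383 genes). Chromosome 19 followed at 0.234, and 10 of the other 19 medians were positive. WT 2 was the highest library for 71.2% of chromosome 15 genes, 54.8% of chromosome 17 genes and 5.13% of chromosome 18 genes. Among 80 chromosome medians, 20 in each of 4 libraries, that of chromosome 15 in WT 2 was the largest in size. Outside WT 2, 211F 2 had a median of 0.357 on chromosome 12. WT 2 thus departed on other chromosomes as well, in both directions.

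**Figure D1:**
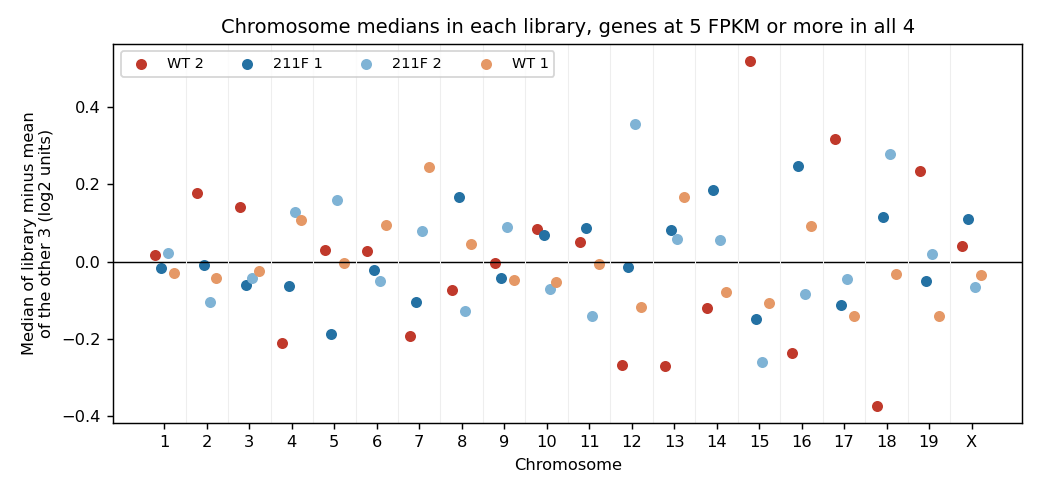
Median over the coding genes of each chromosome (horizontal axis) of one library minus the mean of the other 3, in log2 units of FPKM + 1, relative to all other chromosomes. Points stand for the 4 libraries, and WT 2 on chromosome 15, at 0.519, is the point farthest from 0.

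The other 3 libraries did not differ from each other on this chromosome in the way WT 2 did. Each was set against the mean of the other 2, with WT 2 left out. The median over the 293 genes was 0.05 in 211F 1, -0.09 in 211F 2 and 0.05 in WT 1. The genes with a positive value numbered 156 in 211F 1, 115 in 211F 2 and 161 in WT 1, so each library was split. The SD of the 3 medians was 0.0822, beside the WT 2 shift of 0.51. Since each was set against the other 2, the 3 medians are not independent values. Over the other 19 chromosomes the medians of WT 2 had an SD of 0.188. Along chromosome 15, in the windows described below, 211F 1, 211F 2 and WT 1 were not level with each other. From 30 to 40 Mb (24 genes) the median was 0.217 in 211F 1, -0.167 in 211F 2 and -0.00366 in WT 1. From 70 to 80 Mb (75 genes) it was -0.135 in 211F 1, 0.0684 in 211F 2 and 0.0713 in WT 1. In every window below 70 Mb the median was positive in 211F 1 and negative in 211F 2. The markers of the mesenchymal list did not divide the libraries in 1 way. Vim, an intermediate filament protein, was at 1634 FPKM in WT 2, against 1856 in 211F 1, 1.86 in 211F 2 and 124 in WT 1. Col1a1, a fibrillar collagen, was at 437 FPKM in WT 2, against 2.70 in 211F 1, 0.566 in 211F 2 and 0.542 in WT 1. The part of these markers in the chromosome 15 shift was not tested.

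Set against single libraries, WT 2 was higher by a median of 0.49 than 211F 1, by 0.57 than 211F 2 and by 0.45 than WT 1. It stood above 211F 1 in 248 of 293 genes (84.6%), above 211F 2 in 261 (89.1%) and above WT 1 in 239 (81.6%). The 50.0% of genes of other chromosomes in each comparison is again fixed by the centring on them. The 3 comparisons share WT 2 and are not independent of each other.

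**Figure D2:**
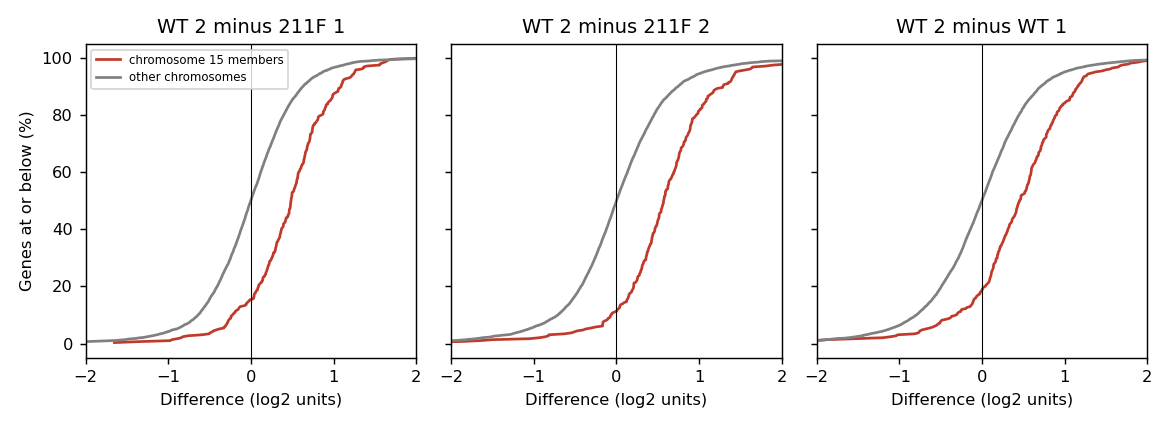
Cumulative share of genes (percent) by the difference of WT 2 from 211F 1, 211F 2 and WT 1 in log2 units, for the 293 chromosome 15 genes and for 7563 genes of other chromosomes; the axis is drawn from -2 to 2. In each panel the chromosome 15 curve lies to the right, with medians of 0.49, 0.57 and 0.45.

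Along the chromosome the shift was positive in every 10 Mb window. The medians of the 11 windows ran from 0.20 (between 10 and 20 Mb, 11 genes) to 0.88 (below 10 Mb, 17 genes). The window from 40 to 50 Mb stood at 0.815, with 6 genes, and that from 60 to 70 Mb at 0.389, with 5 genes. These thin windows carry little weight, since 5 of the 11 windows held under 20 genes.

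In the windows with 20 or more genes the medians were closer together. They were 0.496 from 30 to 40 Mb (24 genes), 0.506 from 50 to 60 Mb (23 genes) and 0.403 from 70 to 80 Mb (75 genes). The next were 0.471 from 80 to 90 Mb (59 genes), 0.646 from 90 to 100 Mb (40 genes) and 0.539 above 100 Mb (26 genes). WT 2 was the highest library for 64.0% of the genes from 70 to 80 Mb and for 81.4% of those from 80 to 90 Mb.

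A running median over 21 neighbouring genes stayed above 0 in 273 of 273 positions. Its lowest value, 0.215, fell between Mpst and Tomm22, and its highest, 0.817, between Ghr and Rai14 near the start of the chromosome. The 33 genes at or below 0 were scattered, and the longest run of neighbours at or below 0 was 3 genes. Set against 211F 1 alone, the medians of the windows with 20 or more genes ran from 0.251 (30 to 40 Mb) to 0.565 (70 to 80 Mb). Set against WT 1 alone they ran from 0.28 (70 to 80 Mb) to 0.637 (90 to 100 Mb). The first window, with 17 genes, stood at 0.61 against 211F 1 and 0.873 against WT 1. The order of the windows therefore depended on the library WT 2 was compared with, while all 11 window medians were positive against each of the 3 libraries.

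**Figure D3:**
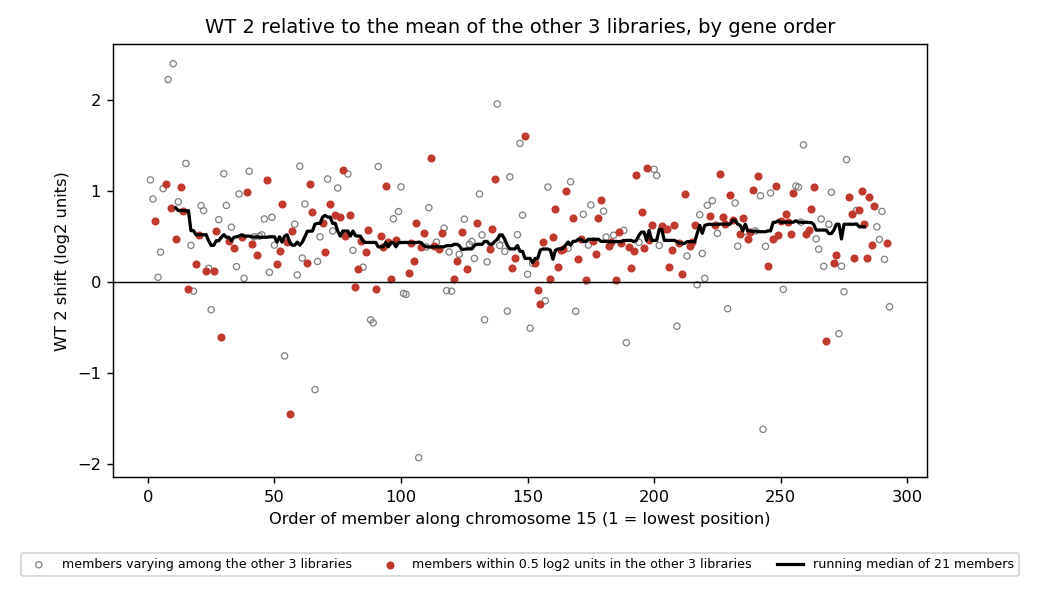
WT 2 shift of each of the 293 genes (vertical axis, log2 units) in the order of their position on chromosome 15, with filled points for genes that varied by at most 0.5 log2 units among the other 3 libraries. The line is the running median of 21 genes, which stays between 0.215 and 0.817.

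Genes that were steady in the other 3 libraries had a median shift close to that of the rest. In 155 of the 293 genes the range over 211F 1, 211F 2 and WT 1 was at most 0.5 log2 units. Their median shift was 0.51, with 147 of 155 (94.8%) above 0, against a median of 0.02 and 52.3% above 0 in 3689 steady genes of other chromosomes. In the 138 genes that varied more, the median was 0.50 and 113 were above 0.

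Among the steady genes, the 8 with the highest shift had values from 1.13 to 1.61. Triobp, which encodes an actin-bundling protein, was at 70.0 FPKM in WT 2, against 23.4 in 211F 1, 26.6 in 211F 2 and 18.9 in WT 1. Grina, a membrane protein of the TMBIM family, was at 109.6 FPKM in WT 2, against 37.1 in 211F 1, 42.3 in 211F 2 and 49.6 in WT 1. Both were picked for a high shift and for close values in the other 3 libraries, so this pattern is fixed by the choice. Rbfox2, a splicing regulator, was at 64.6 FPKM in WT 2, against 32.7 in 211F 1, 29.1 in 211F 2 and 26.9 in WT 1. Chkb, which phosphorylates choline for membrane lipid synthesis, was at 23.6 FPKM in WT 2, against 9.90 in 211F 1, 10.5 in 211F 2 and 9.74 in WT 1. The others were Serhl, Tbc1d31, Cenpm, a centromere protein, and Slc48a1, a haem transporter. Exons of Triobp, Serhl, Chkb and Slc48a1 overlap those of another annotated gene, so reads may be shared.

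The 4 steady genes with the lowest shift went the other way. Fzd6, a Wnt receptor, was at 14.4 FPKM in WT 2, against 38.9 in 211F 1, 44.9 in 211F 2 and 42.7 in WT 1, a shift of -1.45. Basp1, a membrane-associated cytoskeletal protein, was at 104 FPKM in WT 2, against 179.6 in 211F 1, 157 in 211F 2 and 151 in WT 1. Dip2b was at 8.23 FPKM in WT 2, against 13.1 in 211F 1, 16.2 in 211F 2 and 12.1 in WT 1. In each of these WT 2 was the lowest library, which the choice by low shift largely fixes. The 4th, 1700088E04Rik, was at 9.38 FPKM in WT 2, against 11.0 in 211F 1, 12.02 in 211F 2 and 11.4 in WT 1. Exons of Fzd6, Dip2b and 1700088E04Rik overlap those of another annotated gene too, so the same limit holds for them.

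Genes under 5 FPKM in any library were not taken in. Falls in WT 2 to below that level are therefore not covered here, nor are rises in WT 2 from below it. Including genes that varied elsewhere, 4 genes had a shift of -1 or less, and they are named here after their values were seen. Besides Fzd6 they were Fam83h (-1.93), which organises keratin filaments, the vitamin D receptor Vdr (-1.62) and Trps1 (-1.18), a GATA-type transcriptional repressor. Vdr was at 15.2 FPKM in WT 2, against 30.8 in 211F 1, 63.0 in 211F 2 and 62.7 in WT 1. For Trps1 the levels were 19.8 FPKM in WT 2, against 28.7 in 211F 1, 38.75 in 211F 2 and 93.4 in WT 1. All 4 were lowest in WT 2, which their choice by shift largely fixes, and the epithelial markers were lowest in that library too. The part of those markers' difference in these values was not tested.

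The promoters at both ends of the steady genes are shown, since these are the genes farthest apart in shift with a RefSeq promoter at hand. Of the 293 genes 168 matched a RefSeq promoter (GRCm38.p6, 300 bases around the annotated start), and Fzd6 was not among them. Capitals mark matches, on either strand, to the CCAAT box (CCAAT), the GC box (GGGCGG) and the E-box (CACGTG).
Triobp (chr15:78947474-78947773, plus strand): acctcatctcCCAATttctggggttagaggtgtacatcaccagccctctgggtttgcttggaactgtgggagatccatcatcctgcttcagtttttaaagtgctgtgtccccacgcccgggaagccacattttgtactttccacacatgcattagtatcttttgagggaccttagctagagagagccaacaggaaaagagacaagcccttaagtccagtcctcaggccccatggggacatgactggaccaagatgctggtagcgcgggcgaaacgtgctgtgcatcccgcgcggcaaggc
Dip2b (chr15:100038414-100038713, plus strand): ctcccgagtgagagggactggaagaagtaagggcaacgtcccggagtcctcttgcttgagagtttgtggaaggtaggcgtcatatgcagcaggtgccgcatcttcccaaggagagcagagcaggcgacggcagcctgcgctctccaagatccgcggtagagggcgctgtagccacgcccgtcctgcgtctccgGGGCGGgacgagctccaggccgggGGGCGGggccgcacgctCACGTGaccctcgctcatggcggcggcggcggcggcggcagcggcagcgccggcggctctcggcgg
The Triobp window had 9 CpG dinucleotides, 53.3% G and C bases and 1 CCAAT match. The Dip2b window had 35 CpG dinucleotides, 70.0% G and C bases, 2 GC box matches and 1 E-box match. CCAAT was held by 36.3% of the 168 matched promoters, beside 39.2% of 6204 promoters of other chromosomes at the same level and 37.4% of all 32851 in the RefSeq table. The GC box was held by 77.4% of the matched promoters, beside 70.2% at the same level and 35.7% of all. The E-box was held by 10.1% of the matched promoters, beside 11.0% at the same level and 7.15% of all. Under 80% of the 293 genes had a promoter, so a comparison of promoter composition with the shift is void and is not given.

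The shift was similar across classes of transcript composition and length. All genes at this level were put in 3 classes of equal size by the G and C content of the longest transcript. The median shift was 0.536 in the lowest class (82 genes), 0.492 in the middle (71) and 0.472 in the highest (140). By exon length, again in 3 classes, it was 0.502 in short genes (102), 0.495 in the middle (99) and 0.513 in long genes (92). Genes sharing exon sequence with another gene (113) had a median of 0.506 and those sharing none (180) of 0.502. Over genes of other chromosomes the length classes had medians between -0.01 and 0.02, and each class of G and C content was within 0.01 of 0.

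By level, the most abundant genes moved less. The median shift was 0.527 in 94 genes with a mean under 20 FPKM, 0.523 in 166 genes from 20 to 100 FPKM and 0.330 in 33 genes at 100 FPKM or more. On other chromosomes the same classes stood at 0.03, -0.01 and -0.09, so the class of highest level had the lowest median there too.

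Coding genes below the level used had a similar median. Of the 75 genes with a lowest library between 1 and 5 FPKM, 2 fall under the names left out. In the other 73 the median was 0.54 and 56 were above 0, beside 951 of 1902 elsewhere, a share fixed by the centring. A shift of at least 1 was seen in 26 of the 73 and of -1 or less in 5. Elsewhere these counts were 229 and 244 of the 1902. Of 5 noncoding genes at 1 FPKM or more in each library, 4 were above 0. They are named after their values were seen: Pvt1, the long RNA next to Myc (0.93), Ndufb4c, Peg13, Gm17035 and, below 0, Gm7666 (-0.31). The 16 genes left out by name had a median of 0.823 and 14 were above 0. At the threshold itself, the lowest libraries of Dscc1 and Alg12 were just inside, at 5.20 and 5.22 FPKM. Those of Tnrc6b, Slc38a1 and 1810049J17Rik were just outside, at 4.96, 4.81 and 4.73 FPKM.

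The roles of the genes were compared with 9 lists of chromosome 15 genes, which took in 175 of the 293. The median shift was positive in every list, from 0.27 (signalling and receptors, 15 genes) to 0.69 (cytoskeleton and adhesion, 21 genes). The counts below stand beside 260 of all 293 genes (88.7%) above 0. Genes of these roles on other chromosomes were not compared, so whether differences between lists are particular to this chromosome is not known.

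Genes of the ribosome and of translation had 18 of 21 values above 0, with a median of 0.366. Pabpc1, which binds the poly(A) tail of messenger RNA, was at 1191 FPKM in WT 2, against 854 in 211F 1, 738 in 211F 2 and 1219 in WT 1. Here WT 1 was as high as WT 2. Rpl8, a large-subunit ribosomal protein, was at 1030 FPKM in WT 2, against 757 in 211F 1, 773 in 211F 2 and 926 in WT 1. Rpl3, another ribosomal protein, was lowest in WT 2, at 314 FPKM, against 335 in 211F 1, 371 in 211F 2 and 516.5 in WT 1. Ribosomal protein genes have many processed copies in the genome, so their levels are uncertain.

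All 19 genes of RNA processing and RNA binding were above 0, with a median of 0.492. Pcbp2, a binder of C-rich RNA, was at 147 FPKM in WT 2, against 115 in 211F 1, 102 in 211F 2 and 121 in WT 1. Hnrnpa1, a regulator of splicing, was at 557 FPKM in WT 2, against 572 in 211F 1, 399 in 211F 2 and 478 in WT 1, so 211F 1 was level with it.

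Genes of chromatin and transcription had 27 of 29 values above 0, with a median of 0.572, and WT 2 was highest in 25. Rad21, a cohesin subunit that holds sister chromatids together, was at 248 FPKM in WT 2, against 153 in 211F 1, 151 in 211F 2 and 181 in WT 1. Every other library lay below WT 2. H1f0, a linker histone, varied more, at 155.5 FPKM in WT 2, against 52.0 in 211F 1, 289 in 211F 2 and 220.1 in WT 1. Myc did not follow the chromosome: it was lowest in WT 2, at 57.1 FPKM, against 103 in 211F 1, 67.6 in 211F 2 and 72.5 in WT 1. Its shift of -0.45 ranked 282 of 293. Myc lies at 61985391 to 61990374, in the window from 60 to 70 Mb.

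Genes of DNA replication, repair and the cell cycle had 13 of 14 values above 0, with a median of 0.615. Xrcc6, the Ku70 subunit of end joining, was at 58.6 FPKM in WT 2, against 47.6 in 211F 1, 37.3 in 211F 2 and 52.7 in WT 1. Tonsl, which handles newly made chromatin at stalled forks, was at 78.35 FPKM in WT 2, against 40.6 in 211F 1, 64.1 in 211F 2 and 81.4 in WT 1. For Tonsl WT 1 and WT 2 were close, and 211F 1 was lowest.

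Cytoskeleton and adhesion genes had 18 of 21 values above 0. The alpha tubulin gene Tuba1b was at 1364 FPKM in WT 2, against 819 in 211F 1, 888 in 211F 2 and 411 in WT 1. Its neighbour Tuba1a was at 539 FPKM in WT 2, against 406 in 211F 1, 279.9 in 211F 2 and 165 in WT 1. The alpha tubulins are near-identical copies, so reads may be split between them. Myh9, the heavy chain of a nonmuscle myosin, was at 347 FPKM in WT 2, against 692 in 211F 1, 136 in 211F 2 and 202 in WT 1, and was highest in 211F 1.

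In mitochondria and metabolism 22 of 23 genes were above 0, with a median of 0.449. Cyb5r3, a cytochrome b5 reductase, was at 291 FPKM in WT 2, against 141 in 211F 1, 99.0 in 211F 2 and 140.1 in WT 1. Oxct1, which uses ketone bodies, was at 147 FPKM in WT 2, against 121 in 211F 1, 111.5 in 211F 2 and 222 in WT 1. WT 2 was thus highest for the first gene and second for the other.

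Ubiquitin, chaperone and protein turnover genes had 16 of 17 values above 0, with a median of 0.398. St13, a cochaperone of Hsp70, was at 379 FPKM in WT 2, against 330.3 in 211F 1, 271 in 211F 2 and 339 in WT 1. Cct5, a subunit of the chaperonin that folds actin and tubulin, was at 312.5 FPKM in WT 2, inside the range of the others (366 in 211F 1, 245 in 211F 2 and 332 in WT 1).

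All 16 genes of membrane traffic, the lysosome and the nuclear pore were above 0, with a median of 0.643. Tmbim6, a calcium channel-like protein of the endoplasmic reticulum that protects from cell death, was at 376.5 FPKM in WT 2, against 204.5 in 211F 1, 161 in 211F 2 and 192 in WT 1. Arf3, a small GTPase of the Golgi, was at 109 FPKM in WT 2, against 64.3 in 211F 1, 67.6 in 211F 2 and 79.4 in WT 1. In both the other 3 libraries lay below WT 2.

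Signalling genes and receptors had 12 of 15 values above 0. Ywhaz, a 14-3-3 adaptor protein, was nearly level, at 399.6 FPKM in WT 2, against 394 in 211F 1, 340.1 in 211F 2 and 334 in WT 1. Plxnb2, a semaphorin receptor, was at 137 FPKM in WT 2, inside the range of 95.65 in 211F 1, 157 in 211F 2 and 167 in WT 1.

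**Figure D4:**
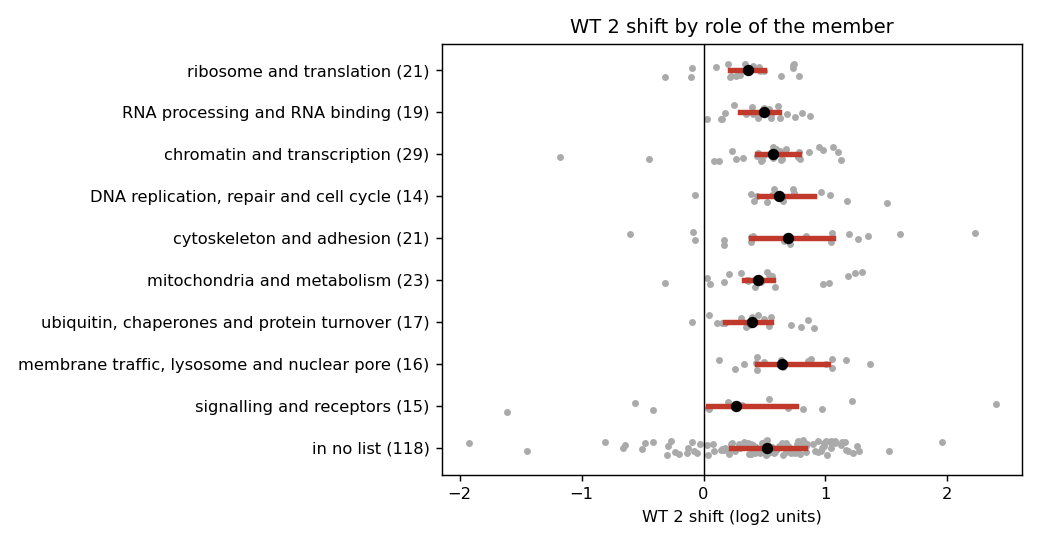
WT 2 shift in log2 units (horizontal axis) of the genes of each role list, with the number of genes in brackets, the median as a black point and the quartiles as a bar. Medians run from 0.27 for signalling and receptors to 0.69 for cytoskeleton and adhesion.

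The comparison of genotypes asks which of these transcripts differ between PCNA 211F and PCNA WT tumour cells. None of the 293 passed limma with Benjamini-Hochberg adjustment over 12767 genes, and over all genes 0% did (smallest adjusted p = 0.9999). At an unadjusted limma p under 0.05 there were 2 of the 293 genes (0.683%), both lower in 211F, beside 1.89% of all genes. An exact permutation test of 2 against 2 libraries cannot go below p = 0.333 (two-sided).

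As a description, 241 of the 293 differences (82.3%) were below 0, beside 46.9% of all genes tested, and the median was -0.23 beside 0.03. Both 211F libraries lay below both WT libraries in 80 genes (27.3%), beside 11.6% of all genes, and above them in 8 (2.73%), beside 15.2%. All genes tested include genes below the level used for the 293. Genes of other chromosomes at that level had 42.1% of differences below 0 and a median of 0.06. Both 211F libraries were lower in 9.98% of them and higher in 18.6%. The balance of the 293 genes rested on WT 2. With WT 1 as the only WT library the median was 0.03 and 140 of the 293 differences were below 0. With WT 2 as the only one the median was -0.47 and 257 were below 0.

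**Figure D5:**
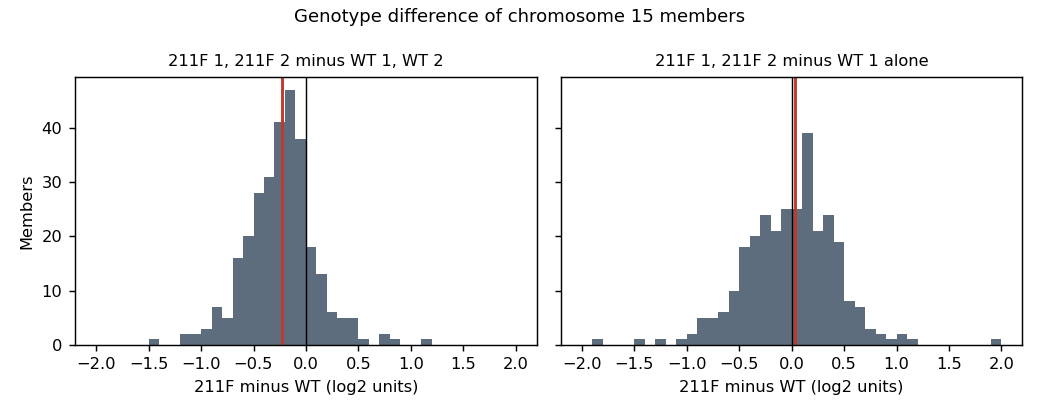
Number of chromosome 15 genes (vertical axis) by the 211F minus WT difference in log2 units, with all 4 libraries on the left and without WT 2 on the right; the red line is the median, at -0.23 and 0.03, and values beyond 2 are drawn at 2.

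Lynx1, a GPI-anchored modulator of nicotinic acetylcholine receptors, had the smallest p among the genes lower in 211F. It was at 6.86 and 5.61 FPKM in 211F, against 13.8 and 17.55 in WT, a difference of -1.20 ± 0.31 (SE, limma unadjusted p = 0.0185, adjusted p = 0.9999). Maf1, a repressor of RNA polymerase III, was at 39.3 and 49.4 FPKM in 211F, against 80.6 and 80.3 in WT, a difference of -0.85 ± 0.23 (SE, limma unadjusted p = 0.0213, adjusted p = 0.9999). For Maf1 the WT libraries were level, so that WT 2 alone did not set the difference. Rpl37, a ribosomal protein, was at 159.6 and 148 FPKM in 211F, against 234 and 218 in WT. Oxr1, an oxidation resistance protein, was at 29.6 and 41.75 FPKM in 211F, against 54.8 and 98.05 in WT.

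Among the genes higher in both 211F libraries the smallest p values belonged to Bop1, Dip2b, Basp1 and Hgh1, and none was under 0.05. Bop1, a ribosome assembly factor, was at 60.5 and 53.3 FPKM in 211F, against 38.4 and 45.6 in WT. Hgh1 was at 9.72 and 7.72 FPKM in 211F, against 5.36 and 6.73 in WT. These genes were taken because their groups did not overlap, so their separation is fixed by the choice.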

How the data were processed

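The deposited table gives FPKM per gene for 4 libraries, made by the authors. TopHat2 2.0.13, DESeq2 and GRCm38 are listed in the submitters' processing notes; the program behind the FPKM and any rescaling between libraries are not given in those notes. FPKM is not a count, so no count model was used. Of 50679 genes, 50369 had a GENCODE M21 position.

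Genotypes were compared with limma 3.58.1 (R 4.3.3) on log2(FPKM + 1), with a variance trend, for the 12767 genes averaging 1 FPKM or more and Benjamini-Hochberg adjustment over all of them. The WT 2 shift was computed with pandas 2.3.3 and numpy 2.4.6. Both steps were tested on simulated data with independent noise, which checks the code and not how it performs on these libraries. Steps of low values gave relative depth: 94.0% to 95.4% of values lay within 0.1 fragments of a whole number, and 5 FPKM corresponded to 302 fragments per kilobase in WT 2, 193 in 211F 1, 165 in 211F 2 and 176 in WT 1. Depth is unknown if values were rescaled.

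The genes and lists were chosen with earlier results of these data known. Genes named were 8 set by name, the steady genes highest (8) and lowest (4) in shift, up to 4 of smallest p in each direction without overlap of groups, the 2 most abundant of each role list, 3 on each side of the level threshold, and cell type markers. Exceptions are stated in the text, and some genes the rule takes are not reported here. Alternatives covered the pseudocount, filters, scaling, comparator, window size, replicate block and each library left out.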

Additional observations from a re-analysis of the deposited data

How the results depend on the processing

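The median WT 2 shift (0.506) lay between 0.414, with a pseudocount of 5, and 0.572, with 211F 2 as the only comparator, and was positive under all 14 alternatives run. WT 2 was highest in 130 of 155 steady genes (83.9%), beside 32.5% of steady genes elsewhere. With the same 293 genes and all comparators kept, the count was 207 to 216, beside 208. At 10 FPKM the share was 72.6% of 230 genes, and at 1 FPKM 70.8% of 366 genes. With fewer comparators WT 2 was set against fewer libraries, and the share elsewhere was 32.8% to 50%. Those counts are not comparable with 208. The lowest window median (0.201) was 0.402 with 20 Mb windows and 0.163 to 0.314 with 1 of the other libraries left out. Without WT 2 there is no shift to compute. Of 152 shifts of single genes under alternatives, 40 moved by at least the SD of 0.0822 and 0 changed sign. These were the steady genes highest and lowest in shift, so their sign was largely fixed by the choice. The median 211F minus WT difference was -0.474 without WT 1 and 0.0289 without WT 2, and none of the 293 genes passed adjustment under any of 13 alternatives. At an unadjusted limma p under 0.05 there were 241 genes in the whole table, against 745 with no filter, 142 with the replicate block, 520 with the crossed block and 221 to 836 with 1 library left out. Among the 293 genes, 2 had such a p, against 1 with the block, 10 with the crossed block and 23 without WT 1. With a genotype arm of 1 library, that library is assumed to vary like the others. With the replicate number as a block the median was -0.231 and 0 genes passed. Same-numbered libraries deviated in opposite directions (r = -0.465 across 12767 genes, which are not independent). This value cannot tell whether the numbers mark a shared preparation, and the main comparison used no block. A crossed pairing, chosen after seeing the data, also gave 0 calls. With 2 libraries a genotype, and WT 2 apart in its markers, precision is limited by their number.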
